A study of Mus with 8 samples.

Results

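Mouse skin treated with minoxidil was compared with skin that received water. The comparison holds 4 of the 8 arrays of the series, chosen by their titles: the 2 arrays of minoxidil-treated skin and the 2 arrays of untreated skin. Male C57BL6 mice, aged 7 weeks when the experiment began after acclimatization, had their hair trimmed and depleted. They were then treated topically for 20 days with 1% minoxidil, which the study used as its positive control, or with MilliQ water, called untreated here. The other 4 arrays came from mice given 1% keratin or 1% microsphere keratin, with 2 arrays each, and serve as additional values from the same experiment. The labels give 5 mice per group but do not say whether arrays 1 and 2 of a group are separate animals, pools or repeat hybridisations. P-values therefore measure only the spread between these arrays, which may be technical, and their number limits the precision.

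Minoxidil is a vasodilator that is applied to the scalp against hair loss. Sulfotransferases of the hair follicle turn it into minoxidil sulfate, which opens ATP-sensitive potassium channels, and it lengthens the growth phase of follicles. Skin with hair follicles also holds sebaceous glands, which fill with wax esters, cholesterol esters and triglycerides and release them as sebum. It holds epidermis, dermis, dermal fat and, in mice, a sheet of fast skeletal muscle under the dermis.

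The deposited table gives linear intensities, and all differences below are on the log2 scale of that table, minoxidil minus untreated. Levels of different genes come from different probes and are not set against each other. Minoxidil array 1 had weak mouse signal. On it, the control probeset for the 3′ end of beta-actin read 47.2, against 1883 on minoxidil array 2, 1608 on untreated array 2 and 656 on untreated array 1. Its correlation with each of the other 7 arrays was r = 0.390 to 0.475 across all probesets, and 576 of its 45141 probesets read over 100, against 3097 on minoxidil array 2, 2923 on untreated array 2 and 1512 on untreated array 1. Array 2 of each group is therefore compared first, as the number 2 pair, and minoxidil array 1 is described apart. Markers of the labelled tissue were present. On minoxidil array 2 and untreated array 2, the basal keratin Krt14 read 428 and 243, and the hair keratin Krt35 read 287 and 318. Some other hair keratins lay near the medians of these arrays over all probesets, 37.3 and 37.7. On the same arrays, Krt34 read 37.9 and 42.3, and Krt33b read 42.5 and 47.3.

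No gene passed the test between minoxidil-treated and untreated skin. Over 11235 named genes and all 8 arrays, limma called 0 genes at a Benjamini-Hochberg adjusted p below 0.05, which is 0.0% of those tested, and the lowest adjusted p was 1.00. The unadjusted p was below 0.05 for 50 genes. Without minoxidil array 1, again 0 genes were called (0.0%), 124 had an unadjusted p below 0.05, and the lowest adjusted p was 0.935. Without minoxidil array 2, where minoxidil array 1 alone stands for the treatment and is assumed to vary like the other groups, 860 genes were called, 292 higher and 568 lower. What follows gives measured values, and "higher" and "lower" describe the arrays named. In the number 2 pair there is 1 array a side and no test. Of the genes tested, 77 (0.685%) were at least 1.5-fold higher on minoxidil array 2 and 17 (0.151%) at least 1.5-fold lower. At 2-fold the counts were 27 and 5, and with untreated array 1 as the control, at 1.5-fold, they were 2528 and 53. Untreated array 1 also differed from untreated array 2 in control probesets. The 3′ end of Gapdh read 298 on it, against 1362, and that of BioB read 738, against 96.3. The part of array quality in differences against untreated array 1 was not tested. In the number 2 pair the median over all genes was 0.03, and 60.5% of genes were above 0. In the number 1 pair the median was -0.08 and 41.4% were above 0. At shares as low as 0.685% and 0.151%, most short lists would hold 0 genes past 1.5-fold. A count of 0 in a list is therefore not read as a lack of change.

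**Figure D1:**
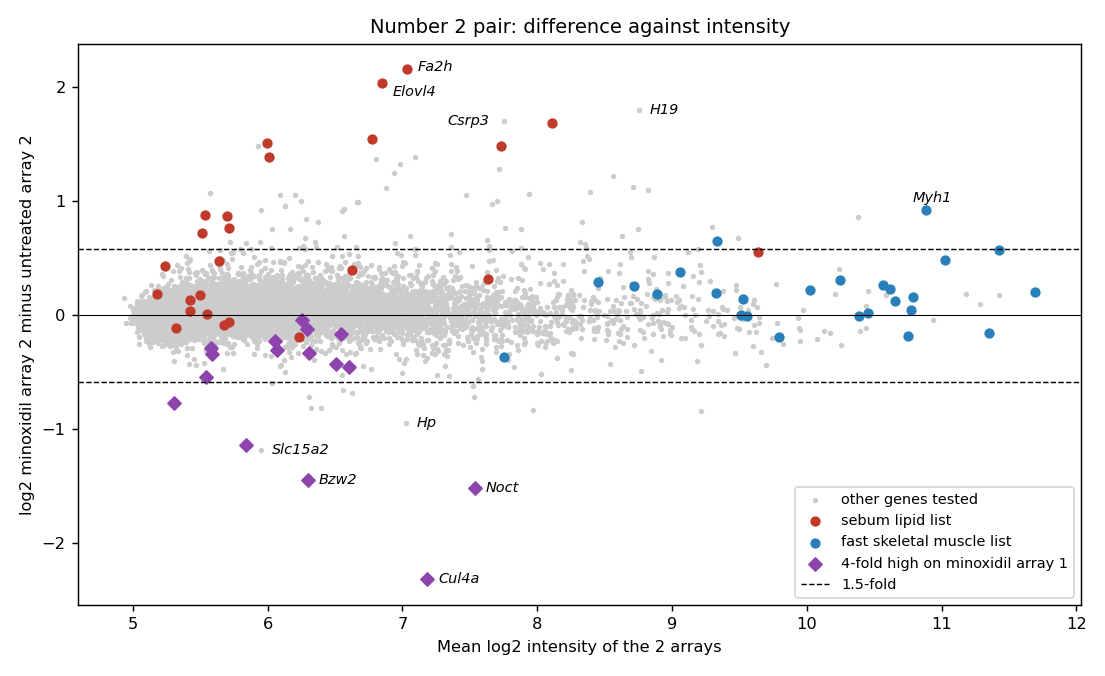
Each point is a gene (red, sebum lipid list; blue, fast skeletal muscle list; purple, 4-fold high on minoxidil array 1; dashed lines, 1.5-fold): the horizontal axis gives its mean log2 intensity on both arrays and the vertical axis its log2 difference in the number 2 pair, minoxidil minus untreated. The genes farthest above 0 include Fa2h, Elovl4, Scd1 and other lipid enzymes, and Cul4a, Noct and Bzw2 lie farthest below.

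Genes of sebum lipid synthesis were among the highest in the number 2 pair. Of 25 members tested, out of 33 on the list, 11 were at least 1.5-fold higher on minoxidil array 2, against 0.685% of all genes, and 0 were at least 1.5-fold lower, against 0.151%. The median difference of the list was 0.48, against 0.03 over all genes. On 13 of the 25, minoxidil array 2 read above all 6 arrays of the other groups, which held for 14.9% of all genes. The authors' deposited table lists 18 of the 25 as higher, against 15.4% of all genes tested, and 0 as lower, against 5.5%. The list was assembled with earlier results of these samples known, so its direction is not independent evidence. The number 1 pair did not repeat it: there the median was -0.17, with 1 member at least 1.5-fold higher (4.52% of all genes) and 7 at least 1.5-fold lower (17.9%). In skin measured whole, fewer cells of a type and less RNA per cell cannot be told apart.

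Fa2h, which adds a hydroxyl group to fatty acids, stood highest of all genes tested. It read 277 on minoxidil array 2 and 62.1 on untreated array 2, a 4.46-fold difference (2.16 on the log2 scale). On the number 1 arrays it read 90.2 with minoxidil and 59.3 untreated, and the keratin and microsphere arrays lay at 58.8 to 100.5. Both minoxidil arrays were thus above both untreated arrays, a pattern found in 7.52% of genes, while minoxidil array 1 lay within the range of the keratin and microsphere arrays. In limma with all 8 arrays the difference was 1.38 ± 0.56 (SE) with an adjusted p of 1.00. Without minoxidil array 1 it was 2.19 ± 0.40 (SE) with an adjusted p of 0.935.

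The fatty acid elongases, which lengthen acyl chains, were divided. Of 6 tested, 4 were at least 1.5-fold higher in the number 2 pair, against 0.685% of all genes, and the median was 1.13. Elovl4, which makes very long chains, read 234 on minoxidil array 2 and 56.8 on untreated array 2, with 54.01 on minoxidil array 1 and 53.6 on untreated array 1. Minoxidil array 2 was above both untreated arrays, while minoxidil array 1 lay between them and the next keratin array, at 161.6, was closer to minoxidil array 2 than to the untreated arrays. Elovl6 read 188 on minoxidil array 2 and 64.1 on untreated array 2, with 43.4 on minoxidil array 1 and 46.8 on untreated array 1, and the keratin and microsphere arrays read 60.99 to 86.9, so minoxidil array 2 stood alone above all 7 others. Elovl5 read 355 on minoxidil array 2 and 127 on untreated array 2, with 34.5 on minoxidil array 1 and 101 on untreated array 1, again with minoxidil array 2 above all others and minoxidil array 1 below all others. Elovl3, an elongase of sebaceous and brown fat cells, read 68.4 on minoxidil array 2 and 40.3 on untreated array 2. Elovl7 and Elovl1 differed by -0.06 and -0.19.

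Among desaturases, Scd1, the enzyme that puts a double bond into stearate and palmitate and whose loss shrinks the sebaceous glands of mice, read 495 on minoxidil array 2 and 154 on untreated array 2, with 64.6 on minoxidil array 1 and 136 on untreated array 1. The highest of the 8 arrays was minoxidil array 2, with keratin array 1 next at 366.8, and minoxidil array 1 was the lowest. Scd3, a copy that in mice is found in sebaceous glands, read 43.9 on minoxidil array 2 and 32.5 on untreated array 2, while Fads1 differed by 0.01. Related Scd genes can share probe sequence, so the levels of single members are uncertain.

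Among enzymes that form esters, Soat1, which esterifies cholesterol, read 104 on minoxidil array 2 and 39.8 on untreated array 2, with 31.4 on minoxidil array 1 and 36.2 on untreated array 1. It was highest on minoxidil array 2 and lowest on minoxidil array 1, with 37.2 to 64.2 on the keratin and microsphere arrays. The other 4 named probesets of Soat1 differed by only 0.09 to 0.43, against 1.39 for this one. Among the genes above, the other named probeset differed by 0.34 for Scd1 and 0.41 for Elovl6, against 1.69 and 1.55. For Elovl4 and Elovl5 it was closer, at 1.89 and 1.37 against 2.04 and 1.49. The size of these differences thus depends on the probeset. Far2, which reduces fatty acyl groups to the fatty alcohols of wax esters, read 63.1 on minoxidil array 2 and 34.2 on untreated array 2, but keratin array 1 came close at 60.31. Far1, Dgat2 and Agpat2 differed by -0.08, 0.13 and 0.18. Sdr16c6 and Sdr16c5, short-chain dehydrogenases linked to retinol, differed by 1.52 and 0.87. Sdr16c6 read 108 on minoxidil array 2 and 37.7 on untreated array 2, with 24.6 on minoxidil array 1 and 38.4 on untreated array 1. On untreated array 2, Soat1, Far2 and Sdr16c6 lay near the median of that array, 37.7, so the size of their differences is uncertain.

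The regulators and droplet proteins of sebocytes showed smaller differences. Cidea, which enlarges lipid droplets, read 58.8 on minoxidil array 2 and 35.6 on untreated array 2, and it was the 1 of 8 members past 1.5-fold. Pparg, the nuclear receptor of sebocyte and fat cell differentiation, read 38.5 on minoxidil array 2 and 33.9 on untreated array 2, and the melanocortin receptor Mc5r read 38.5 on minoxidil array 2 and 41.5 on untreated array 2. Both lay near the medians of these arrays over all probesets, 37.3 and 37.7, as did Cidea on untreated array 2. The size of these differences is therefore uncertain. Fabp5, a fatty acid binding protein, read 969 on minoxidil array 2 and 658 on untreated array 2, with 520.1 to 1193 on the keratin and microsphere arrays.

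**Figure D2:**
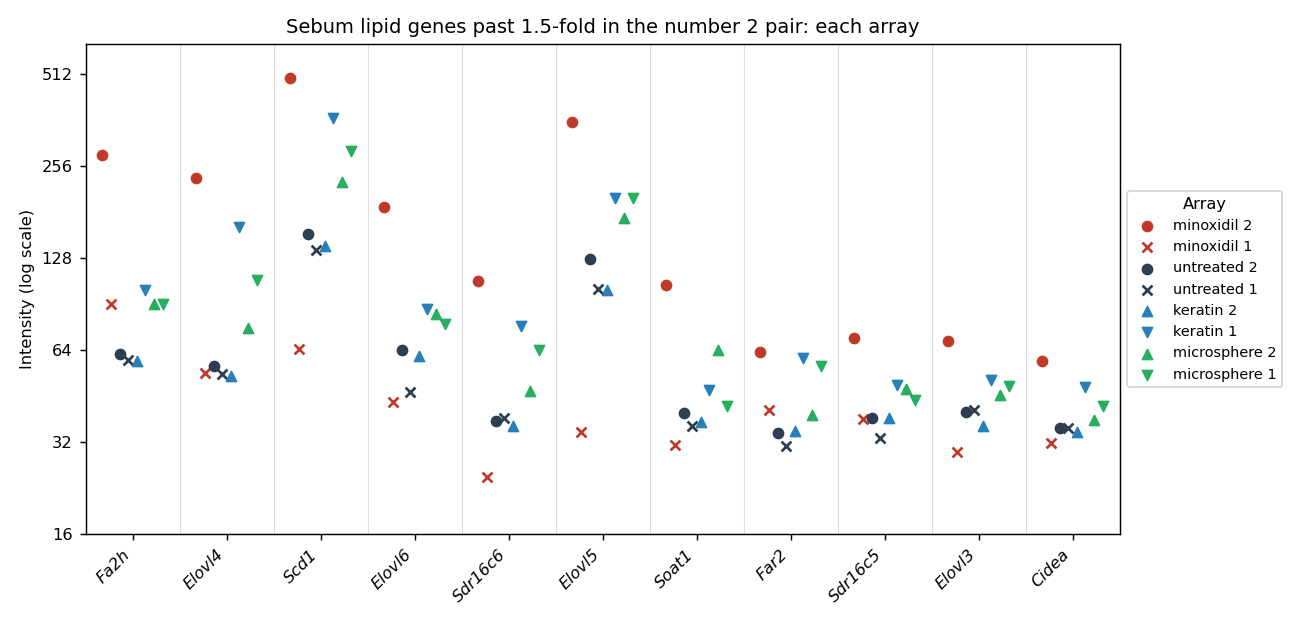
Intensity, on a log axis, of sebum lipid genes on each array, with minoxidil arrays in red, untreated arrays in dark grey and the keratin and microsphere arrays in blue and green. Minoxidil array 2 stands at the top for Fa2h, Elovl4, Scd1 and Elovl6, and minoxidil array 1 lies below both untreated arrays for Scd1, Elovl6 and Elovl5.

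Enzymes that build fatty acids and cholesterol followed in part. Of 21 fatty acid synthesis genes, 4 were at least 1.5-fold higher in the number 2 pair and 1 lower, against 0.685% and 0.151% of all genes, with a median of 0.30. Besides Scd1 and Elovl6, which this list shares with the one above, these were Hsd17b12, a reductase of the elongation cycle that read 131 on minoxidil array 2 and 68.7 on untreated array 2, with 47.5 on minoxidil array 1 and 75.8 on untreated array 1, and Acacb, an acetyl-CoA carboxylase that read 94.8 on minoxidil array 2 and 62.3 on untreated array 2, with 37.6 on minoxidil array 1 and 39.3 on untreated array 1. Hsd17b12 was above the other 7 arrays on minoxidil array 2, whereas Acacb was close to keratin array 2. Fasn, the fatty acid synthase, differed by 0.35 and Acly, which supplies acetyl-CoA, by 0.44. The transcription factor Srebf1 differed by 0.08. Scd2 went the other way, at 74.9 on minoxidil array 2 and 118 on untreated array 2. Its other 2 named probesets differed by only -0.09 and -0.07, against -0.66 for this one.

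Of 21 cholesterol genes, 3 were at least 1.5-fold higher, again against 0.685% of all genes, and 0 lower, against 0.151%, with a median of 0.17. Msmo1, a sterol oxidase, read 85 on minoxidil array 2 and 44.9 on untreated array 2, and Acat2, which joins acetyl-CoA units, read 209.7 on minoxidil array 2 and 128.2 on untreated array 2. The other named probeset of Msmo1 differed by 0.19, against 0.92 for this one. Hmgcs1, an enzyme of the first steps, differed by 0.08. Together the sebum, fatty acid and cholesterol lists had 63 tested members and held 16 of the 77 genes past 1.5-fold.

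Oxidation and barrier lists had smaller medians in the number 2 pair. The median was 0.14 for 24 PPAR targets and fatty acid oxidation genes, with 1 member past 1.5-fold, Pdk4, a kinase that limits the use of glucose. It read 576 on minoxidil array 2 and 248 on untreated array 2, but 631.5 on keratin array 2. The median was 0.13 for 24 peroxisome genes, with the 1 member Cat, the enzyme that breaks down hydrogen peroxide, at 289 on minoxidil array 2 and 192 on untreated array 2. It was 0.12 for 13 barrier lipid genes, of which 0 passed 1.5-fold. Over all genes, 0.685% were at least 1.5-fold higher. This order of the lists depends on the untreated array. With untreated array 1 as the control, the median over all genes was 0.28, and the medians were 0.669 for sebum lipid, 0.934 for fatty acid synthesis, 0.423 for cholesterol synthesis, 0.839 for PPAR targets and fatty acid oxidation, 0.496 for peroxisome and 0.321 for barrier lipid genes.

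Other genes of the upper end are known from skeletal muscle. Csrp3, a protein of the sarcomere's Z disc, read 389.7 on minoxidil array 2 and 119.7 on untreated array 2, with 18.5 on minoxidil array 1 and 82.6 on untreated array 1, and 372.6 on microsphere keratin array 1. The ubiquitin ligases Trim63 and Fbxo32, which act in muscle protein breakdown, differed by 1.33 and 1.12. Keratin array 2 was above minoxidil array 2 for both, at 297.6 for Trim63 and 365.2 for Fbxo32. Lmod2, Mybpc1, Actn2, Hspb6 and Hspb7, genes of the sarcomere or of its small heat shock proteins, differed by 1.29, 1.13, 1.08, 1.10 and 1.37. For Hspb7, the other 2 named probesets differed by only 0.33 and 0.59. These genes were singled out after their values were seen.

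The list of fast skeletal muscle genes gave a median of 0.19 over 26 genes. Of these, 2 were at least 1.5-fold higher and 0 lower, against 0.685% and 0.151% of all genes. These 2 were Myh1, a myosin heavy chain, at 2600 on minoxidil array 2 and 1369 on untreated array 2, and Mb, the oxygen carrier myoglobin, at 808 on minoxidil array 2 and 514 on untreated array 2. Near-identical myosin genes can share probes, so Myh1 is uncertain. Muscle genes also varied among untreated arrays. Acta1, skeletal actin, read 3353 on minoxidil array 2 and 2254 on untreated array 2, against 31.4 on minoxidil array 1 and 353 on untreated array 1. Ckm, muscle creatine kinase, read 1774 on minoxidil array 2 and 1719 on untreated array 2, against 34.2 and 171 on the number 1 arrays. Above all 6 arrays of the other groups stood minoxidil array 2 for 15 of the 26 members, against 14.9% of all genes. With untreated array 1 as the control, the median of the list was 2.91. The amount of muscle in each sample was not measured otherwise, and its part in these differences was not tested.

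H19, an imprinted non-coding RNA, had the highest difference of the genes that are on none of the lists. It read 804 on minoxidil array 2 and 231 on untreated array 2, with 41.7 on minoxidil array 1 and 111 on untreated array 1. Microsphere keratin array 1 was next highest, as it was for Csrp3. The keratin and microsphere arrays lay at 158 to 445, so minoxidil array 2 was the highest of all 8 and minoxidil array 1 the lowest.

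Dermal matrix genes had a median of 0.10 over 34. Of these, 3 were at least 1.5-fold higher and 0 lower, against 0.685% and 0.151% of all genes. Col1a1, a chain of type I collagen, read 285 on minoxidil array 2 and 145 on untreated array 2, with 30.6 on minoxidil array 1 and 144 on untreated array 1. The keratin and microsphere arrays reached 577.8, above minoxidil array 2. Col1a2 and Sparc, a collagen-binding glycoprotein, differed by 0.76 and 0.69, and untreated array 1 read 660.2 for Col1a2, above the 559 of minoxidil array 2.

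In the epidermis, 1 of 8 basal genes was at least 1.5-fold higher, against 0.685% of all genes. This was Krt14, at 428 on minoxidil array 2 and 243 on untreated array 2, with 89.2 on minoxidil array 1 and 282 on untreated array 1. Untreated array 1 was nearer to minoxidil array 2 than untreated array 2 was, and keratin array 1 read 434.7. The suprabasal list had a median of -0.05 over 21 genes, with 0 past 1.5-fold either way. Krt79, a keratin of the sebaceous duct and the upper follicle, read 110.3 on minoxidil array 2 and 62.6 on untreated array 2, and Defb8, an antimicrobial peptide, read 102 on minoxidil array 2 and 36.3 on untreated array 2, with 104.0 on keratin array 1.

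Most hair follicle lists lay near the median of all genes in the number 2 pair. Over 12 hair keratins the median was -0.06 and 0 passed 1.5-fold, against 0.685% of all genes higher and 0.151% lower. Some of them, such as Krt34 and Krt33b, read near the array medians, where a lower level could hardly show. The widest was Krt34 at -0.16, and Krt33a was at 0.06. The 35 keratin-associated proteins, which cross-link the keratins of the shaft and whose near-identical copies can share probes, had a median of 0.05, with 0 past 1.5-fold either way. Minoxidil array 2 was below all 6 arrays of the other groups for 11 of them, against 5.14% of all genes. In the number 1 pair their median was -0.48.

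Among the 7 inner root sheath and companion layer keratins the median was -0.33, and over the whole list of 14 genes it was -0.13, with 0 past 1.5-fold. Krt73, a keratin of the sheath cuticle, read 107 on minoxidil array 2 and 152 on untreated array 2, with 118 on minoxidil array 1 and 77.9 on untreated array 1. The order of the groups thus differed between the pairs. Krt71, another sheath keratin, differed by -0.38. Tchh, trichohyalin, the protein of the sheath's granules, read 368 on minoxidil array 2 and 518 on untreated array 2.

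Of the 23 hair matrix and growth phase genes, 1 was at least 1.5-fold higher in the number 2 pair, against 0.685% of all genes, and the median was 0.02. This was Shh, the hedgehog ligand of the growing follicle, at 71.2 on minoxidil array 2 and 45.96 on untreated array 2, with 33.99 on minoxidil array 1 and 51.6 on untreated array 1. Microsphere keratin array 2 read 136.7, above minoxidil array 2, and minoxidil array 1 was below both untreated arrays. The other 5 hedgehog genes tested differed by 0.02 (Smo, the signal transducer) to 0.22 (Gli1, a target). Transcription factors of the hair shaft had a median of -0.22 over 7 genes, with Gata3 at -0.38 and Dlx3 at -0.36. Medians were 0.08 for 11 bulge stem cell genes, -0.10 for 6 dermal papilla genes and 0.03 for 9 genes of the rest and regression phases, with 0 past 1.5-fold in each.

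Genes linked to minoxidil's known action showed no difference past 1.5-fold in the number 2 pair. Of 43 listed, 24 were tested, with a median of -0.04 and a range of -0.19 to 0.27. For activation, the sulfotransferase Sult1a1 read 54.97 on minoxidil array 2 and 50.6 on untreated array 2, with 50.3 on minoxidil array 1 and 54.2 on untreated array 1. For the potassium channel, the regulatory subunit Abcc9 read 157 on minoxidil array 2 and 142 on untreated array 2, with 42.8 on minoxidil array 1 and 54.7 on untreated array 1, and the pore subunit Kcnj11 read 72.1 on minoxidil array 2 and 74.1 on untreated array 2. Vegfa, a growth factor of vessels that minoxidil raises in cultured dermal papilla cells, read 61.9 on minoxidil array 2 and 63.5 on untreated array 2, with 62.7 on minoxidil array 1 and 40.6 on untreated array 1. Minoxidil array 2 and untreated array 2 were nearly level in it.

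The growth factors Igf1, Fgf5, which ends the growth phase, and Fgf7, which promotes it, differed by 0.02, -0.06 and -0.19. Prostaglandin genes lay between -0.11 (the receptor Ptger3) and 0.12 (the synthase Ptgds). Lox, which cross-links collagen, read 58.7 on minoxidil array 2 and 48.7 on untreated array 2, with 44.96 on minoxidil array 1 and 58.9 on untreated array 1. Untreated array 1 was at the level of minoxidil array 2. Plod2, a lysyl hydroxylase of the family that minoxidil lowers in cultured fibroblasts, differed by -0.04. The vascular receptors Kdr and Flt1 differed by -0.08 and -0.09. All 24 but Abcc9 read between 32.7 and 80.9 on the number 2 arrays, and the medians of the arrays over all probesets were 35.9 to 37.7.

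Lists for other cell types gave medians of -0.06 for 6 endothelial genes, 0.09 for 9 smooth muscle and pericyte genes, -0.03 for 15 macrophage and dendritic genes, -0.01 for 10 T cell, mast cell and neutrophil genes, and 0.03 for 9 melanocyte genes. None of these lists had a member past 1.5-fold in the number 2 pair, against 0.685% of all genes higher and 0.151% lower. Some members read near the array medians. On minoxidil array 2 and untreated array 2, Cdh5 read 42.5 and 45.6, and Ltf read 36.2 and 39.1. The 10 mature adipocyte genes had a median of 0.13 and 1 member past 1.5-fold lower, against 0.151% of all genes. This was Cfd, the adipokine adipsin. Adipoq, adiponectin, read 58.99 on minoxidil array 2 and 83.2 on untreated array 2, with 31.7 on minoxidil array 1 and 82.8 on untreated array 1, while Fabp4, the fatty acid carrier of fat cells, read 428 on minoxidil array 2 and 397 on untreated array 2. The 4 tested members of the list for blood and other organs are all myelin or Schwann cell genes. Among them 2, including Pmp22, were at least 1.5-fold lower, against 0.151% of all genes.

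**Figure D3:**
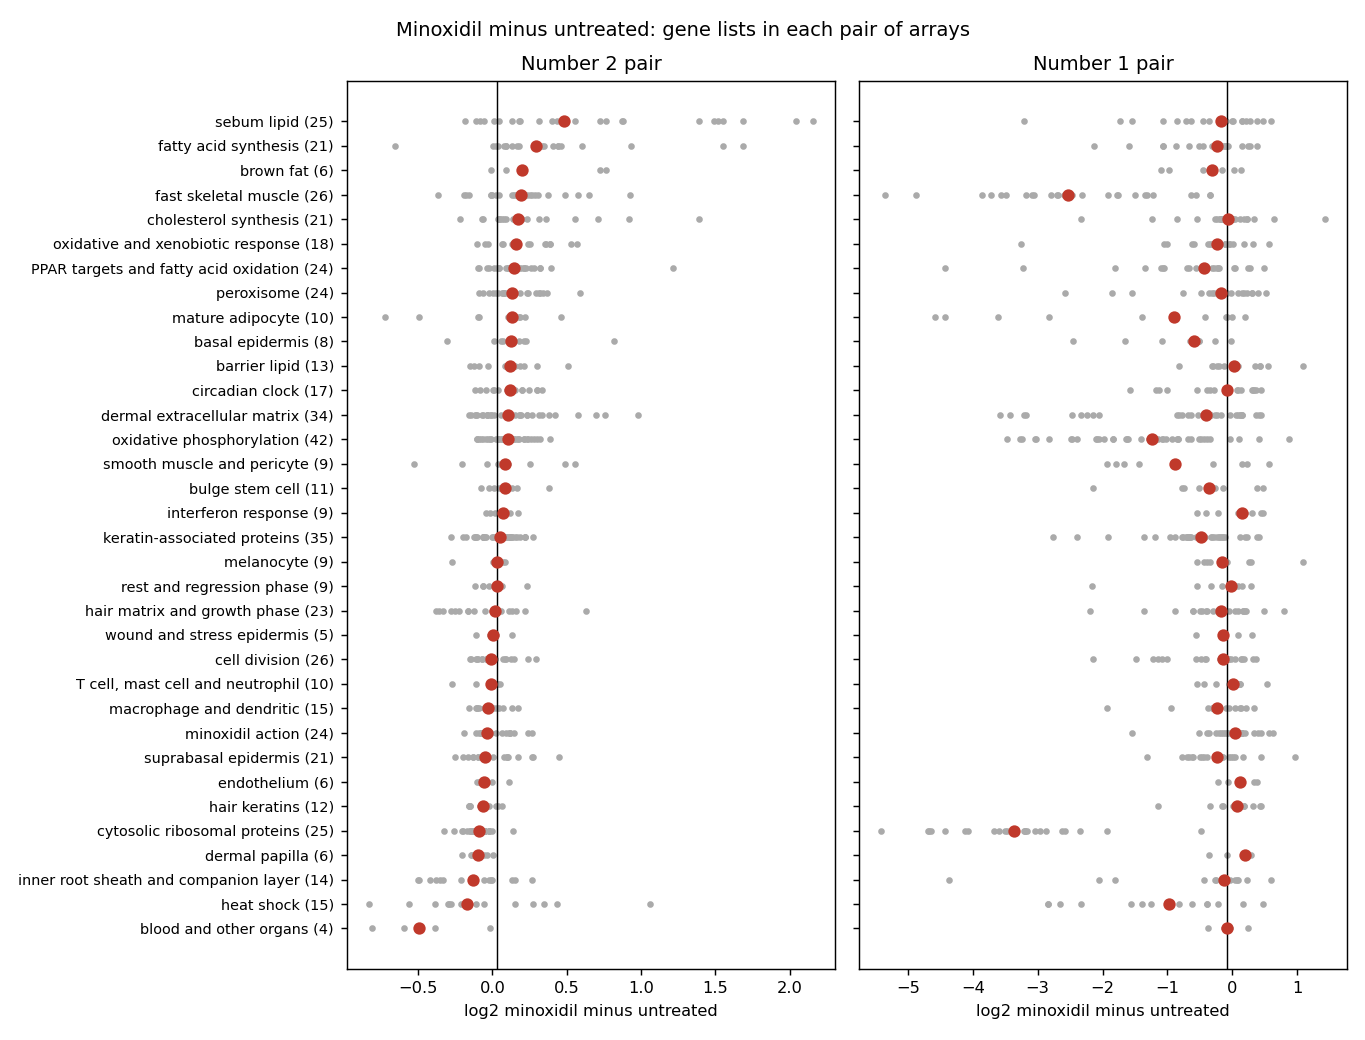
Log2 difference, minoxidil minus untreated, of gene lists, shown for each pair of arrays; grey dots are members, red marks are list medians and the vertical line is the median of all genes tested. The sebum lipid list has a median of 0.48 in the number 2 pair, and the muscle and ribosomal lists have medians of -2.53 and -3.36 in the number 1 pair.

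For several of the 17 genes lower in the number 2 pair, minoxidil array 2 was not lower than untreated array 1. Cul4a, a scaffold of ubiquitin ligases, had the lowest difference, -2.32. It read 65.1 on minoxidil array 2 and 325 on untreated array 2, with 2093 on minoxidil array 1 and 34.2 on untreated array 1. Untreated array 2 was high and untreated array 1 low, and minoxidil array 1 exceeded all others. Of the other 2 named probesets of Cul4a, 1 differed by -1.94 and 1 by 0.12. Noct, the clock-regulated gene of nocturnin, read 109.9 on minoxidil array 2 and 314 on untreated array 2, with 2327 on minoxidil array 1 and 144 on untreated array 1, and Bzw2 read 47.6 on minoxidil array 2 and 130 on untreated array 2, with 1350 on minoxidil array 1 and 44.8 on untreated array 1. Bzw2 also has another named probeset, which differed by 0.03. The other named probeset of Noct differed by -0.34, against -1.515 for this one. In all, 12 of the 17 genes had untreated array 2 as the highest of the 7 arrays other than minoxidil array 1. The 17 were chosen for reading lower on minoxidil array 2 than on untreated array 2. That choice favours such a count, so nothing is concluded from it. Of the 17, 3 were also at least 1.5-fold lower against untreated array 1. Over all genes tested, 53 were lower to that extent against untreated array 1. Of the 77 higher genes, 65 were also at least 1.5-fold above untreated array 1, as were 2528 of the 11235 genes.

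The lower genes in which untreated array 2 was not the highest of those 7 arrays include 2 that fat cells express. The mature adipocyte list as a whole did not go that way. Of its 10 tested members, 6 were above 0 in the number 2 pair, against 60.5% of all genes, and the median was 0.13. Cfd read 144 on minoxidil array 2 and 237 on untreated array 2, with 39.6 on minoxidil array 1 and 282 on untreated array 1, and 177 to 531 on the keratin and microsphere arrays. Hp, the haemoglobin carrier haptoglobin, read 93.8 on minoxidil array 2 and 181 on untreated array 2, with 29.6 on minoxidil array 1 and 222 on untreated array 1, and 128.2 to 310.4 on the keratin and microsphere arrays. For both genes, both minoxidil arrays were below the other 6 arrays. That pattern against the untreated arrays alone, both minoxidil arrays below both, was found in 4.34% of all genes. Minoxidil array 1 by itself was at least 1.5-fold below untreated array 1 for 17.9% of all genes.

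In 3 further lower genes, minoxidil array 2 was above untreated array 1. Hspa1b, an inducible heat shock protein, read 188 on minoxidil array 2 and 334 on untreated array 2, with 59.9 on minoxidil array 1 and 143 on untreated array 1. Igfbp3, a carrier of insulin-like growth factors, read 63.6 on minoxidil array 2 and 112 on untreated array 2, with 25.4 on minoxidil array 1 and 45.5 on untreated array 1, and Pmp22, a myelin protein, read 60.4 on minoxidil array 2 and 106 on untreated array 2, with 38.8 on minoxidil array 1 and 50.5 on untreated array 1. Krt77, a keratin, was also among the lower genes. It read 61.8 on minoxidil array 2 and 102 on untreated array 2, with 66.3 on minoxidil array 1 and 77.5 on untreated array 1. In it, both minoxidil arrays were below both untreated arrays.

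**Figure D4:**
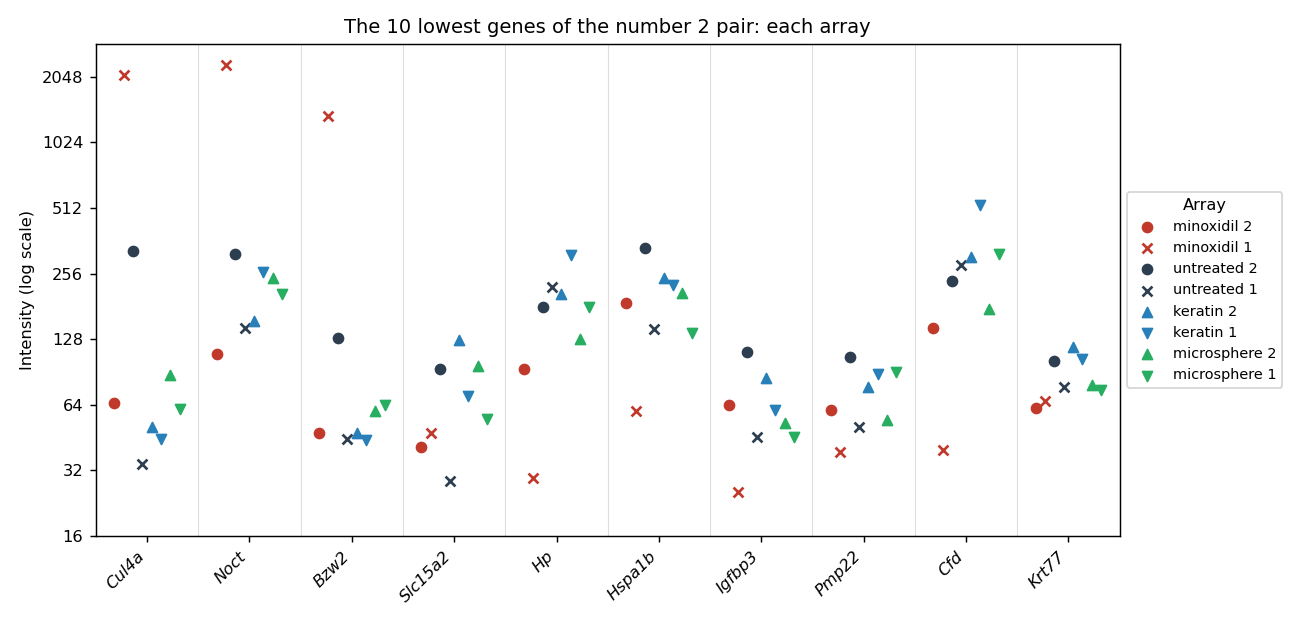
Intensity, on a log axis, of the 10 lowest genes of the number 2 pair on each array, with predicted genes skipped. The skipped X83313, BC094435 and 4933438K21Rik were also higher on minoxidil array 1 than on the other arrays. Cul4a, Noct and Bzw2 are far higher on minoxidil array 1 than elsewhere and high on untreated array 2, while Hp and Cfd are lowest on the minoxidil arrays.

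On minoxidil array 1, 56 probesets read at least 4-fold above the highest of 6 other arrays, all arrays but untreated array 2, and they read 119 to 3324 there. Their median was 482.5 on minoxidil array 1 and 43.1 on minoxidil array 2, against 70.5 on untreated array 2 and 40.3 on untreated array 1. Untreated array 2 was the highest of the remaining 7 arrays for 49 of the 56. In the number 2 pair, 24 of the 56 were at least 1.5-fold lower and 0 at least 1.5-fold higher, so that they make up 24 of all 46 probesets past 1.5-fold lower, named or not. Among named genes they account for 5 of the 17 lower and 0 of the 77 higher. The cause was not tested.

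**Figure D5:**
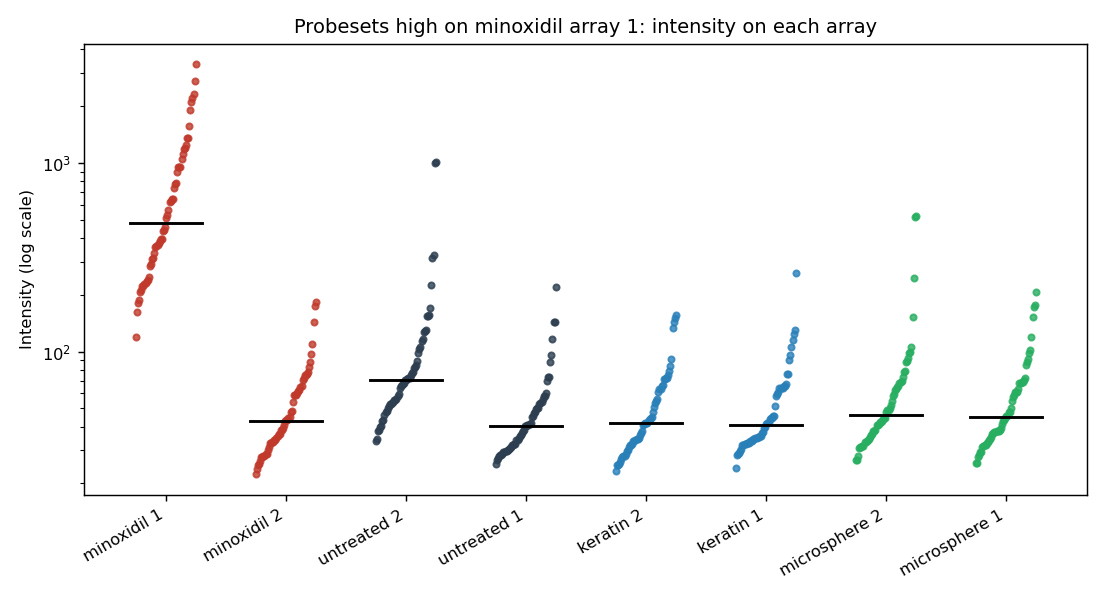
Intensity, on a log axis, of the 56 probesets that are high on minoxidil array 1, for each array; dots are probesets and black bars are medians. The median is 482.5 on minoxidil array 1, 43.1 on minoxidil array 2 and 70.5 on untreated array 2.

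Lists of widely expressed genes read low on minoxidil array 1. In the number 1 pair 508 of all genes tested (4.52%) were at least 1.5-fold higher and 2008 (17.9%) at least 1.5-fold lower, with a median of -0.08. Of 25 cytosolic ribosomal protein genes, 24 were at least 1.5-fold lower there, with a median of -3.36, as were 33 of 42 oxidative phosphorylation genes, with a median of -1.23. In the number 2 pair the medians of these lists were -0.09 and 0.10, and 0 members passed 1.5-fold. The beta-actin control of minoxidil array 1 was low as well, as given above, and the part of RNA quality in these differences was not tested.

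The 2 pairs shared few genes. Past 1.5-fold in both pairs were 1 of the 77 higher genes, Fa2h, and 5 of the 17 lower genes, Cfd, Hopx, Hp, Hspa1b and Igfbp3. Over all genes tested, 4.52% were at least 1.5-fold higher in the number 1 pair and 17.9% at least 1.5-fold lower. These few genes are therefore not read as a shared result. At 2-fold there were 0 in either direction. Hopx, a homeodomain protein of the epidermis and follicle, read 149 on minoxidil array 2 and 228 on untreated array 2, with 58.5 on minoxidil array 1 and 92.7 on untreated array 1. In limma over 8 arrays, 2 genes without overlap between the groups had an unadjusted p below 0.01, both higher. Slc27a4, a fatty acid transporter of the epidermis, read 71.1 on minoxidil array 2 and 49.9 on untreated array 2, with 89.6 on minoxidil array 1 and 42.1 on untreated array 1, and differed by 0.80 ± 0.22 (SE) with an adjusted p of 1.00. Aadac, an esterase, read 46.4 on minoxidil array 2 and 35.5 on untreated array 2, with 44.9 on minoxidil array 1 and 30.3 on untreated array 1, and differed by 0.48 ± 0.13 (SE) with an adjusted p of 1.00.

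The authors' deposited table of the number 2 pair listed 5646 probesets, from a fold of 1.3, and of these 3576 were higher with minoxidil and 2070 lower. At 2-fold or more, the authors' deposited table had 248 higher and 110 lower, and 39 of those 110 are among the 56 probesets high on minoxidil array 1. Its values are on a wider scale than the intensities above. The authors' deposited table gives a fold of 5.31 for Elovl6 and 7.63 for Soat1, against 2.93 and 2.62 from the intensities.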

How the data were processed

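RNA of treated skin was measured on arrays of the type HT_MG-430_PM, as the file headers give it. The submitters' processing notes name RMA, Transcriptome Analysis Console and Affymetrix Expression Console, with no versions. The intensity values deposited for 45141 probesets are linear, with background correction and normalization not given in the sources used here, and log2 was taken, because the values proved linear and not log2 as first assumed. In 6 comparison tables the authors deposited log2 values of each condition and a fold change with a sign, that is, a score below 0 where the treated side is lower. The p-values deposited in one of them are 1 throughout and were not used. One table bears the name of minoxidil array 1 but has microsphere columns, and it was not used for that array.

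Symbols came from the authors' tables (annotation na36, per the file headers). These list probesets past a fold in the same samples, so which genes are named depends on these data. Of 28918 probesets listed, 23804 had 1 symbol, and a gene was represented by its probeset of highest mean over 8 arrays, which can be one that is bright on minoxidil array 1. Genes whose mean reached the 25th percentile were tested, 11235 of 14980, of which 10550 have a current RefSeq symbol. No coordinates are given, since no build is named. limma 3.58.1 (R 4.3.3) fitted 4 group means with an intensity trend, with Benjamini-Hochberg adjustment. The smallest two-sided p of an exact permutation test of 2 arrays against 2 is 0.333, so none was used. The fit was tested on simulated data.

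The 34 gene lists and the members were chosen with earlier results of these data known. Named genes were the 10 highest and lowest of the number 2 pair, the leading limma genes, up to 4 members per list, every tested gene of minoxidil's action, the genes farthest outside the other 6 arrays, and genes past 2-fold in both pairs, with predicted genes skipped. A probeset chosen by the mean without minoxidil array 1 was tried after seeing the data. Plots came from matplotlib 3.10.9 under Python 3.11.15. Some genes that the rule names are not reported here.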

Additional observations from a re-analysis of the deposited data

Results flagged for a closer look

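A signal outside the genes compared was found on minoxidil array 1. Of the 56 probesets at least 4-fold above the 6 arrays other than untreated array 2, 40 are not the probeset that stands for a gene in the comparison of genes, and at least 1 of these 40 is another probeset of a gene tested, Cul4a. Untreated array 2 was the highest of the remaining 7 arrays for 49 of the 56.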

How the results depend on the processing

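The count of limma calls was 0 with all 8 arrays. It stayed 0 under quantile normalization, median centring, both filters, every probeset and the mean of probesets. The same held with no intensity trend, array weights, the 4 arrays alone and both normexp corrections. Leaving out 1 array of either group gave 0 to 860 calls, the 860 arising without minoxidil replicate 2, that is, on minoxidil array 1 alone (292 higher, 568 lower). With the replicate number as a replicate block, 0 genes were called, 119 had an unadjusted p below 0.05 and the lowest adjusted p was 0.997. The labels do not say what a number marks, and the number 2 minus number 1 differences correlated at 0.564 between minoxidil and untreated and 0.112 to 0.594 over all pairs of groups. Against 77 genes at least 1.5-fold higher in the number 2 pair, there were 117 over every probeset, 2528 with untreated array 1 as the control and 27 at 2-fold. Against 17 lower, there were 46 over every probeset, 53 with untreated array 1 as the control, 11 under normexp with offset 50 and 5 at 2-fold. The sebum lipid median of 0.48 was 0.403 under quantile normalization, 1.391 with the median filter, which leaves 13 members, 0.336 and 0.622 under normexp with offsets of 50 and 16, and 0.669 against untreated array 1. Against untreated array 1 other list medians also moved, among them cell division to 0.505, brown fat to 0.738, ribosomal proteins to 0.407, oxidative phosphorylation to 1.519, heat shock to 0.971 and blood and other organs to 0.106. Against untreated array 1 the differences turned to 0.088 for Bzw2, 0.93 for Cul4a, 0.398 for Hspa1b, 0.482 for Igfbp3, 0.259 for Pmp22 and 0.517 for Slc15a2. With the probeset chosen without minoxidil array 1, an alternative added after seeing the data, Bzw2 turned to 0.028. The causes were not tested.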

Other observations

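Genes outside the lists were also high on minoxidil array 2. Tmem45b read 68.9 on minoxidil array 2 and 32.7 on untreated array 2, with 33.5 on minoxidil array 1 and 34.2 on untreated array 1, and 32.9 to 46.6 on the keratin and microsphere arrays. Tceal7 read 97.99 on minoxidil array 2 and 47.3 on untreated array 2, with 38.4 on minoxidil array 1 and 34.5 on untreated array 1, and Itm2a, a membrane protein of muscle and cartilage precursors, read 295 on minoxidil array 2 and 147 on untreated array 2, with 52.02 on minoxidil array 1 and 55.7 on untreated array 1. Minoxidil array 2 was the highest of the 8 arrays for all 3 genes. Ctla2a, a protease inhibitor, read 97.4 on minoxidil array 2 and 50.1 on untreated array 2, with 33.2 on minoxidil array 1 and 252 on untreated array 1, and there untreated array 1 was the highest. Mt1, a metal-binding metallothionein, read 907 on minoxidil array 2 and 568 on untreated array 2, with 543 to 1012 on the keratin and microsphere arrays. Its other named probeset differed by 0.06, against 0.68 for this one.

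Circadian clock genes had a median difference of 0.12 over 17 in the number 2 pair, against 0.03 over all genes, and 0 passed 1.5-fold. The 26 cell division genes had a median of -0.01 and the 9 interferon response genes 0.07, each with 0 past 1.5-fold. The same held for the 18 oxidative and xenobiotic response genes, with a median of 0.16, and the 5 wound and stress epidermis genes, with a median of 0.01. Of the 6 brown fat genes, with a median of 0.20, Cidea and Elovl3 were at least 1.5-fold higher, against 0.685% of all genes. Both also belong to the sebum lipid list. The 15 heat shock genes had a median of -0.17, with Hspb1, a small heat shock protein, higher at 356 on minoxidil array 2 and 170.1 on untreated array 2, and Hspa1b lower.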
